A study of Mus musculus with 2 samples.

Results

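Genes of osteoclast differentiation and cell fusion, 9 of 17270 named genes in the deposited table, were described in classically activated macrophages that lacked or carried Ninj1. The genes were Dcstamp, Ocstamp, Tnfrsf11a, Oscar, Calcr, Nfatc1, Src, Acp5 and Atp6v0d2. They were found by symbol, from a list chosen by reading the knockout and wild-type normalized counts of these same 4 columns, so every genotype difference in the 9 is a description and carries no test. All 9 had a row, and 7 had at least 20 reads in a column. Oscar and Calcr did not reach that minimum.

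Macrophages of Ninj1-/- mice and of Ninj1+/+ mice were compared by bulk messenger RNA sequencing, with 1 registered sample and 2 table columns per genotype. Marrow of mice aged 6 weeks was cultured with M-CSF for 7 days, and the macrophages of both genotypes then received 500 ng/ml lipopolysaccharide together with 20 ng/ml interferon-gamma. The labels name no RANKL in the culture, give neither sex nor genetic background, and do not say whether the deletion is present in all cells. They also do not say whether the columns of a genotype came from separate mice or cultures, so the p-values below measure only the spread between columns, which may be technical.

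Osteoclasts are the bone-resorbing cells of the monocyte and macrophage lineage. Their precursors, which M-CSF keeps alive, respond to RANKL through the receptor RANK, which signals to NF-kB and AP-1 and leads to induction of NFATc1, the master transcription factor of the fate. Immunoreceptors such as OSCAR supply a calcium signal that amplifies NFATc1. NFATc1 then switches on fusion proteins that merge precursors into multinucleated cells, and the enzymes and proton pumps that dissolve bone. Macrophages use part of the same fusion machinery when they form giant cells.

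The columns held 46798381 to 62684262 reads assigned to genes. Ninj1 itself (GRCm38 chromosome 13, 49187485 to 49196244) averaged 3802 normalized counts in the knockout and 30004 in wild type, which is 12.7% of wild type (log2 ratio -2.98, SE 0.08, limma adjusted p = 1.80e-11). A normalized count is the number of reads of a gene divided by 1 scaling factor per column. Macrophage markers were abundant in every column. Summed over 10 markers they gave 1074090 and 1094530 normalized counts in the knockout, against 1002570 and 1086880 in wild type, with Cd163 alone under 20 reads in each column. Of the 9 markers kept, Mertk and Itgam fell in the knockout and 7 did not pass the test. The share called was 22.2%, beside 2.91% of all genes kept.

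RefSeq promoter windows (GRCm38.p6, 250 bases before to 50 after a gene's start) were found for 5 of the 9 genes and are shown for Oscar, Acp5 and Calcr, the members with a window that are known NFATc1 targets. Capitals mark the NFAT core GGAAA on either strand (TTTCC on the opposite strand). The Oscar window lies at chr7:3616108-3616407, Acp5 at chr9:22135697-22135996 and Calcr at chr6:3764664-3764963, all on the minus strand.
Oscar: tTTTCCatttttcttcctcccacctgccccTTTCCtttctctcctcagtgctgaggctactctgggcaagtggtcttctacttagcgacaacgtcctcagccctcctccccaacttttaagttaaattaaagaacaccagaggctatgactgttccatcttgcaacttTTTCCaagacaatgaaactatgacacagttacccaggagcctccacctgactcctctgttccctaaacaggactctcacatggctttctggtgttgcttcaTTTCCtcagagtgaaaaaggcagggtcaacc
Acp5: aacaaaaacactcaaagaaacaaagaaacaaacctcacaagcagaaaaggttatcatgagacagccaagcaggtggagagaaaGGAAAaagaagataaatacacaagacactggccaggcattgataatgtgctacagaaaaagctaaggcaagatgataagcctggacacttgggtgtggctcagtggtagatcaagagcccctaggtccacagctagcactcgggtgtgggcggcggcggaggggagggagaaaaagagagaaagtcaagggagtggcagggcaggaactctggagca
Calcr: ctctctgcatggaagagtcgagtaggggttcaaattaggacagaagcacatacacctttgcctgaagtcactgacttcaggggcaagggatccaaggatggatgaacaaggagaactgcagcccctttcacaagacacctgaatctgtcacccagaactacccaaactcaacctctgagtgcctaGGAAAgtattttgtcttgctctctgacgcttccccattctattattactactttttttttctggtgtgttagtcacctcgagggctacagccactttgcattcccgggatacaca
The Oscar window held 4 matches, all on the opposite strand, and the Acp5 and Calcr windows held 1 each. Matches of this short motif are common, since 61.3% of 32851 windows of the same length held at least 1. The windows of Tnfrsf11a (76.7% GC) and Src (82.3% GC) held none. The Src window, chr2:157424043-157424342, lies inside the annotated gene, whose 5′ end is at 157418444, so it describes another start. No window of the 5 held the AP-1 site TGANTCA (7.81% of all windows) or the E-box CACGTG (7.15%). The M-box core CATGTG occurred once, in Oscar (14.2% of all windows). The ETS core GAGGAA occurred in Oscar, with 1 of its 2 matches overlapping an NFAT core, and once in Src (28.3% of all windows). A match is a description of letters, not a binding site. Acp5 and Calcr have further windows in the table, at other starts, and the one nearest the 5′ end of the annotated gene was used.

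The knockout columns lay above both wild-type columns for 8 of the 9 genes, and Src alone overlapped. Among the 12872 genes that reached 20 reads somewhere, 25.5% had knockout columns above both wild-type columns and 25.6% had them below both, 51.1% in all. The members were picked with these values in view, so nothing is read from that count. The median log2 ratio of the 9, knockout minus wild type on log2(normalized count + 1), was 0.47, beside -0.0034 over all genes kept. Both the count and the median of the 9 include Oscar and Calcr, which did not reach the 20 reads asked of the genes kept. Oscar and Calcr both lie above that median, so it is not a like-for-like comparison with the genes kept. The median of the 9 was 0.19 with wild-type column 1 left out. In bulk RNA, more cells that express a gene and more RNA per cell cannot be told apart.

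**Figure D1:**
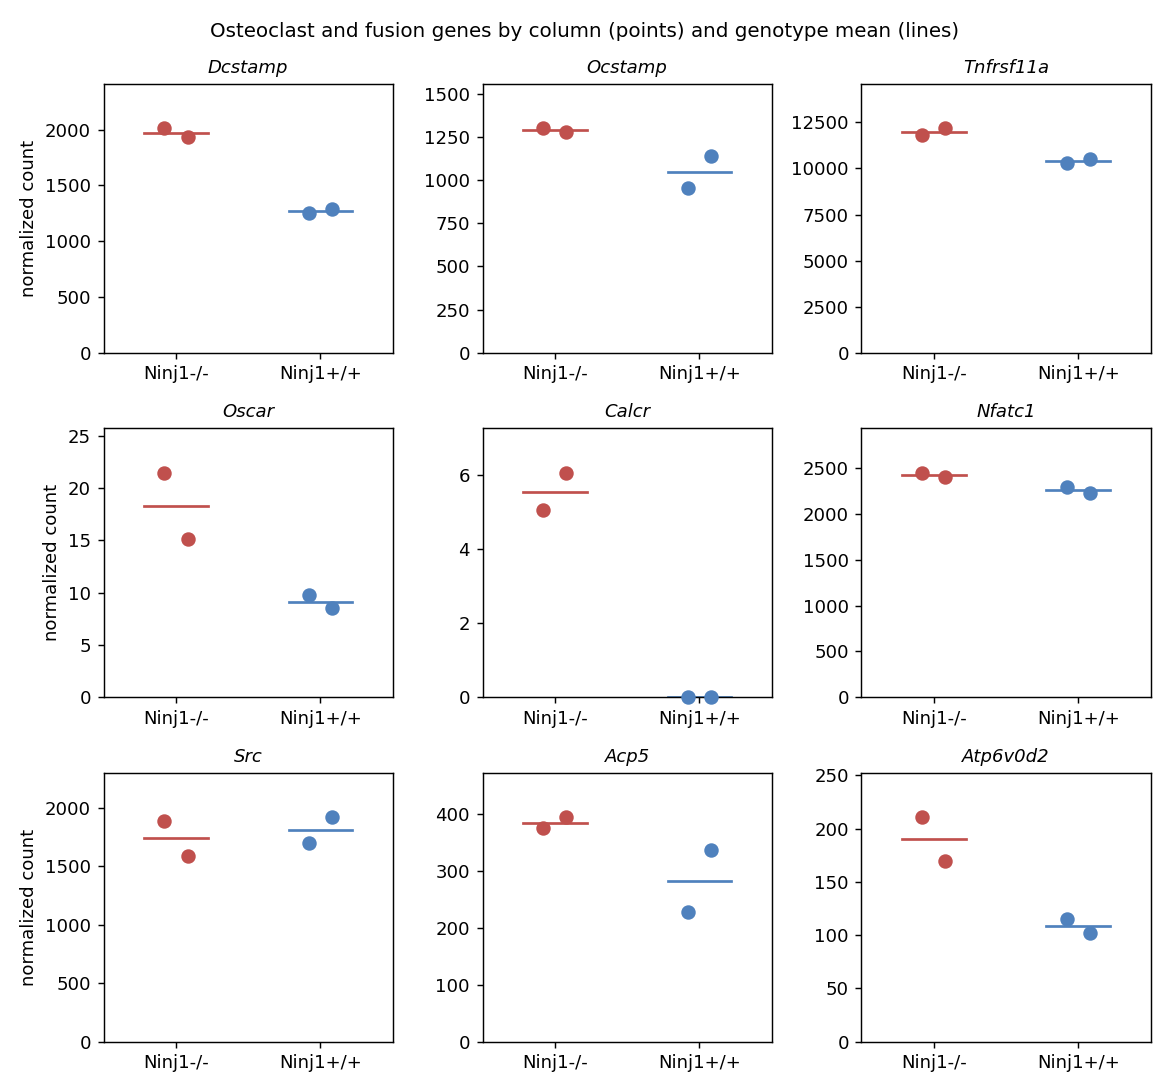
Normalized counts of the 9 genes in each column (points), with the genotype mean as a line, Ninj1-/- left of Ninj1+/+; each panel has its own linear axis from 0. The knockout points lie above both wild-type points in 8 panels, and those of Src overlap.

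Dcstamp (chromosome 15, 39745930 to 39760938, plus strand) encodes DC-STAMP, a multi-pass membrane protein required for osteoclast and giant cell fusion. Dcstamp had 2011 and 1937 normalized counts in the knockout columns, against 1251 and 1290 in the wild-type columns. Both knockout columns were high and the columns of a genotype lay close together. The means were 1974 ± 52.1 in the knockout and 1270 ± 27.4 in wild type (SD, n = 2 columns each), a 1.55-fold difference and a log2 ratio of 0.64. That ratio was above those of 98.5% of all genes kept, a description only, since the gene was picked with these values in view. Leaving out any 1 column kept it between 0.61 and 0.66.

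Ocstamp (chromosome 2, 165393760 to 165400405, minus strand) encodes OC-STAMP, a related membrane protein that acts beside DC-STAMP in fusion. It had 1299 and 1275 normalized counts in the knockout, against 954 and 1139 in wild type. The knockout columns agreed closely and wild-type column 1 was the lowest. The fold was 1.23 and the log2 ratio 0.30, which came to 0.18 with wild-type column 1 left out and to 0.43 with column 2 left out. The normalized count of Dcstamp was 1.55 and 1.52 times that of Ocstamp in the knockout columns, against 1.31 and 1.13 times in the wild-type columns. Scaling a column does not alter this ratio, but trends over GC content and transcript length can. With those trends removed the log2 ratios were 0.56 for Dcstamp and 0.37 for Ocstamp. Before removal they were 0.64 and 0.30, which lie further apart.

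Receptors spanned the whole range of levels. Tnfrsf11a (chromosome 1, 105780718 to 105847981, plus strand) encodes RANK, the receptor of RANKL. It had 11825 and 12172 normalized counts in the knockout, against 10289 and 10503 in wild type, and was the most abundant of the 9 genes. The difference was 1.15-fold (log2 ratio 0.21), small beside that of Dcstamp but larger than the gap between columns of a genotype. The normalized count of Dcstamp was 17.0% and 15.9% of that of Tnfrsf11a in the knockout columns, and 12.2% and 12.3% in the wild-type columns.

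Oscar (chromosome 7, 3609813 to 3616157, minus strand) encodes the osteoclast-associated immunoglobulin-like receptor, which binds collagens and signals through the FcR gamma chain. It was rare, with 21.4 and 15.1 normalized counts in the knockout against 9.74 and 8.49 in wild type. These stood for 17 and 10 reads in the knockout and 6 reads in each wild-type column. The exact Poisson 95% intervals of those reads were 9.90 to 27.2 and 4.80 to 18.4 in the knockout and 2.20 to 13.1 in wild type, and the intervals overlap. A difference of 2.01-fold could not be told from counting error in single columns at this depth. Of low read numbers, 71.9% to 74.6% per column were even, so reads need not be independent fragments and the true intervals may be wider.

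Calcr (chromosome 6, 3685680 to 3764714, minus strand) encodes the calcitonin receptor, a late osteoclast marker. It had 4 reads in each knockout column (5.04 and 6.04 normalized counts) and 0 reads in both wild-type columns. A count of 0 was taken to allow up to 3 reads, or 4.87 and 4.24 normalized counts in the wild-type columns. Its exact Poisson 95% interval reaches 3.69 reads. The exact Poisson 95% interval of 4 reads, 1.09 to 10.2, reaches below both limits. Single columns could thus not be told apart for Calcr at this depth, and no fold is given. The genotypes were not tested for Calcr. A fitted log2 ratio for Calcr depends on the pseudocount and is not given.

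Nfatc1, the master factor, and Src, a kinase, had the smallest ratios. Nfatc1 had 2447 and 2403 normalized counts in the knockout, against 2299 and 2232 in wild type. The columns of the genotypes did not overlap, but the fold was 1.07 and the log2 ratio 0.10, a value that 70.0% of all genes kept lay below. The normalized count of Nfatc1 was 20.7% and 19.7% of that of Tnfrsf11a in the knockout columns, against 22.3% and 21.2% in wild type. Src (chromosome 2, 157418444 to 157471862, plus strand) encodes a tyrosine kinase needed for the ruffled border of the osteoclast. It had 1890 and 1590 normalized counts in the knockout and 1697 and 1916 in wild type. Its columns overlapped and its log2 ratio was -0.06, with the sign turning to 0.030 when wild-type column 2 was left out and to 0.067 when knockout column 2 was. It also turned, to 0.10, once the trends over GC content and transcript length were taken out of every column.

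Both resorption genes lay higher in the knockout columns. Acp5 (chromosome 9, 22126727 to 22135711, minus strand) encodes tartrate-resistant acid phosphatase, the stain by which osteoclasts are recognised. It had 376 and 394 normalized counts in the knockout, against 229 and 337 in wild type. The knockout columns lay close together, and wild-type column 2 was much nearer to them than wild-type column 1. The fold was 1.36 and the log2 ratio 0.47. It was 0.19 with wild-type column 1 left out and 0.75 with column 2 left out. Atp6v0d2 (chromosome 4, 19876841 to 19922605, minus strand) encodes the d2 subunit of the vacuolar proton pump, which also takes part in fusion. It had 211 and 169 normalized counts in the knockout, against 115 and 102 in wild type. Both knockout columns were high. The fold was 1.75 and the log2 ratio 0.80, which ran from 0.64 to 0.95 as single columns were left out. It was above that of 99.1% of all genes kept, a description only, since the gene was picked with these values in view.

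**Figure D2:**
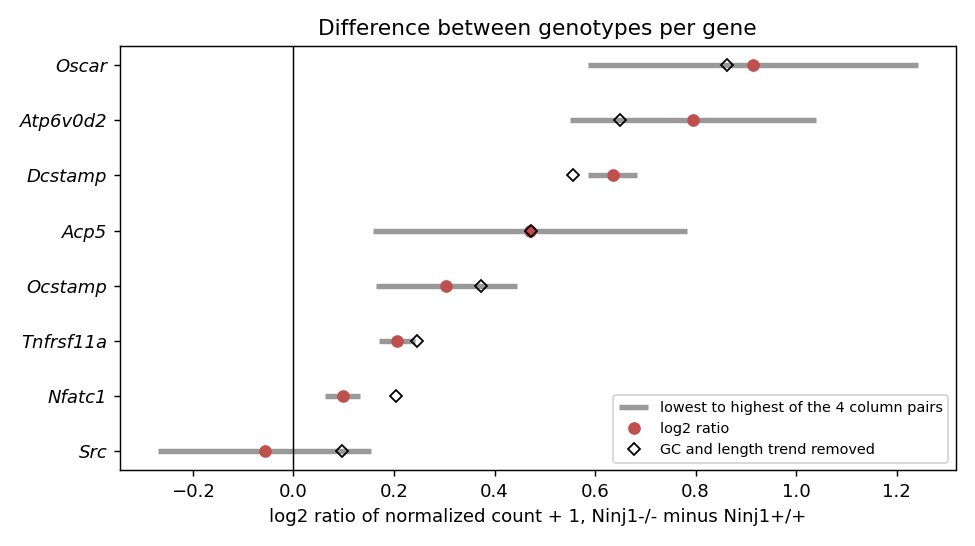
Log2 ratio of normalized count + 1, Ninj1-/- minus Ninj1+/+, for 8 of the 9 genes (filled circles), with the lowest and highest of the 4 knockout and wild-type column pairs (bars) and the ratio once GC and length trends were taken out (diamonds). Calcr is left out because its wild-type columns are at 0; the bar of Src alone crosses 0.

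Ratios moved with transcript composition across the whole table. When genes were ranked by GC content and split into 8 equal bins, the median log2 ratio was 0.11 in the bin lowest in GC and -0.11 in the highest bin. By transcript length, in 8 bins likewise, it was 0.08 in the shortest bin and -0.07 in the longest. The 9 genes had transcripts of 41.6% GC (Atp6v0d2) to 59.3% GC (Src). With both trends removed together the log2 ratio of Dcstamp was 0.56, of Ocstamp 0.37, of Tnfrsf11a 0.25, of Nfatc1 0.20, of Acp5 0.47 and of Atp6v0d2 0.65. Atp6v0d2 stayed above Dcstamp and Dcstamp above Ocstamp.

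Per kilobase of transcript the order of the genotype means was the same in both genotypes. Tnfrsf11a was highest, at 2352 and 2421 normalized counts per kb in the knockout and 2047 and 2089 in wild type. Dcstamp followed, at 1007 and 970 in the knockout and 626 and 646 in wild type. Nfatc1 came next, at 510 and 501 normalized counts per kb in the knockout and 479 and 465 in wild type. Src, at 484 and 407 in the knockout and 435 and 491 in wild type, was not separable from Nfatc1 in wild type, where the columns overlapped. Ocstamp had 355 and 349 per kb in the knockout and 261 and 311 in wild type. Acp5 had 260 and 273 per kb in the knockout and 158 and 233 in wild type. Atp6v0d2, Oscar and Calcr were far lower, with Atp6v0d2 at 82.9 and 66.7 per kb in the knockout and 45.4 and 40.1 in wild type. Among the 11980 genes kept that had a transcript length, Tnfrsf11a had a higher level per kb than 81.7%, Dcstamp than 61.6%, Nfatc1 than 50.2% and Atp6v0d2 than 17.6%.

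Atp6v0d2, Nfatc1 and Src have close relatives in the table. Atp6v0d1, the d1 subunit of the same pump found in most cells, had 8043 and 7899 normalized counts per kb in the knockout and 7212 and 8246 in wild type. Its columns overlapped and it did not pass the test (log2 ratio 0.05, SE 0.07, limma adjusted p = 0.769). In normalized counts Atp6v0d2 came to 1.61% and 1.32% of Atp6v0d1 in the knockout columns, against 0.981% and 0.758% in the wild-type columns. Nfatc1 was not the most abundant of its family. Nfat5, the tonicity-responsive member, had 1198 and 1324 normalized counts per kb in the knockout and 1428 and 1185 in wild type. Nfatc3 had 958 and 975 per kb in the knockout and 894 and 888 in wild type, and Nfatc2 318 and 345 in the knockout and 354 and 316 in wild type. None of these relatives passed the test, with limma adjusted p = 0.813 for Nfat5, 0.373 for Nfatc3 and 0.953 for Nfatc2. Nfatc4 was at 0 reads in 3 columns.

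Src was far below some kinases of its family. Lyn, a main Src family kinase of myeloid cells, had 18580 and 18732 normalized counts per kb in the knockout and 18135 and 18080 in wild type. Fyn had 2280 and 2468 per kb in the knockout and 2573 and 2405 in wild type. Neither passed the test (limma adjusted p = 0.781 for Lyn and 0.642 for Fyn). Fgr was uneven within the knockout, at 82.1 and 231 normalized counts per kb, against 187 and 201 in wild type (adjusted p = 0.405).

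**Figure D3:**
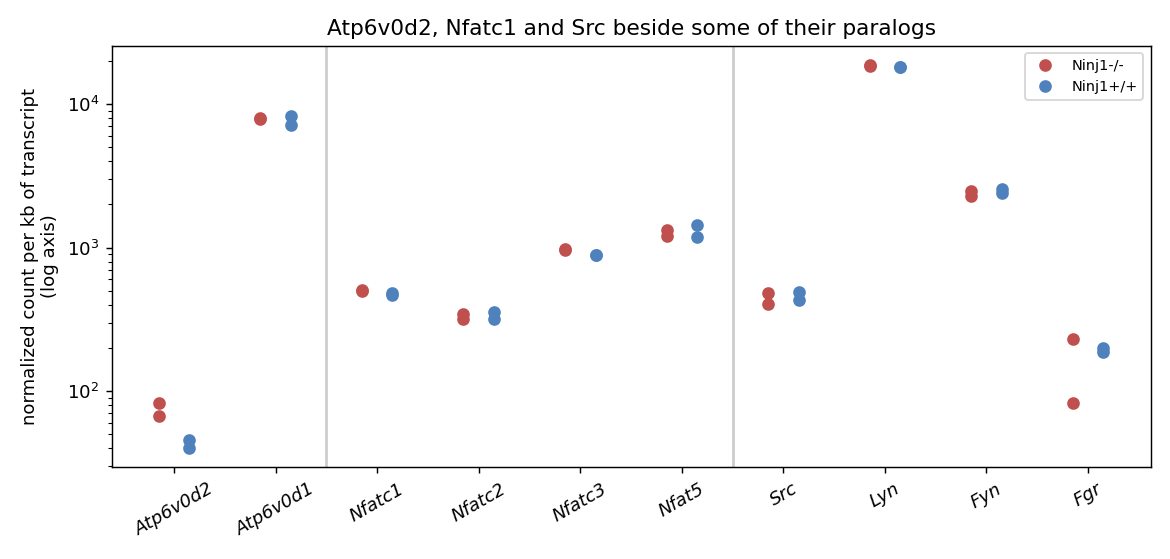
Normalized counts per kilobase of transcript on a log axis for Atp6v0d2, Nfatc1 and Src and some of their paralogs, with both columns of Ninj1-/- (left of each pair) and of Ninj1+/+ as points. Atp6v0d2 lies far below Atp6v0d1, and Src below Lyn and Fyn, in every column.

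Beyond the 9 genes, the wider osteoclast programme showed no common direction. The 7 lists of related genes, none of which holds a member, named 158 distinct genes, of which 140 were kept. Limma called 4 higher and 4 lower at an adjusted p below 0.05, which is 5.71% of the 140, beside 2.91% of all genes kept (1.67% higher and 1.24% lower). Log2 ratios were above 0 in 72 of the 140 (51.4%), beside 49.3% of all genes kept, and their median was 0.01. None of the 8 calls remained without wild-type column 1, and none without knockout column 1.

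**Figure D4:**
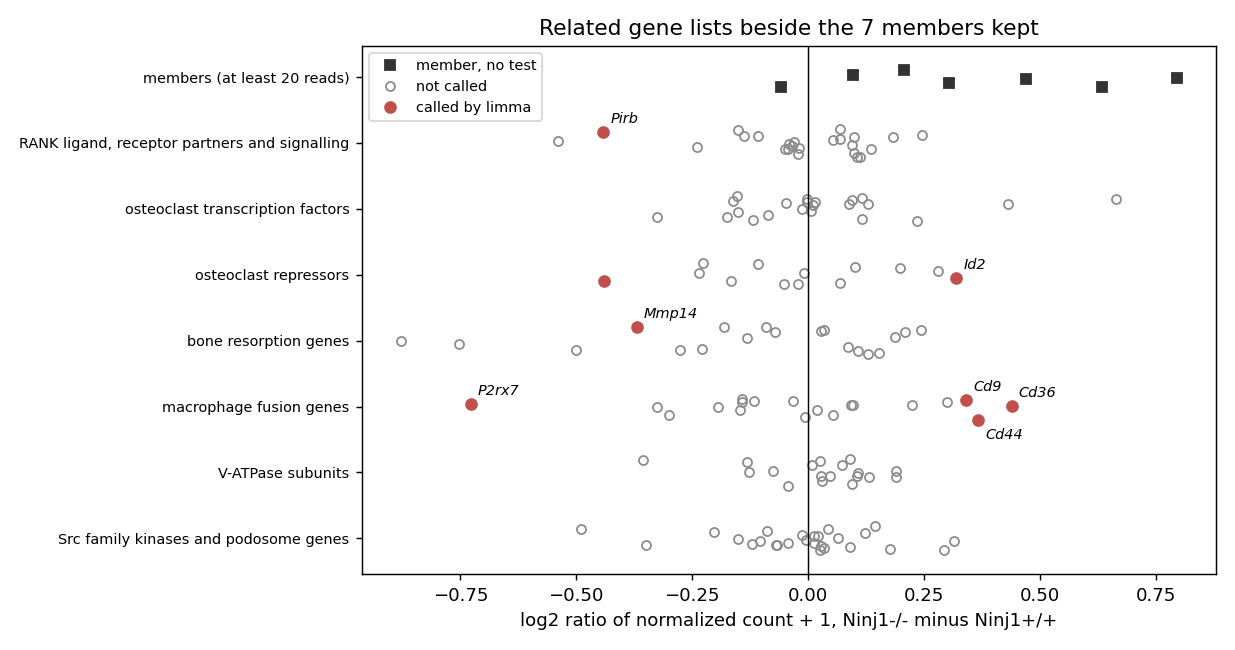
Log2 ratio of normalized count + 1, Ninj1-/- minus Ninj1+/+, for each gene kept, by list; filled red circles were called by limma, open circles were not, and squares are 7 of the 9 members, which were not tested. Of the 8 called genes, 4 lie on each side of 0, and 7 are named.

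Of 24 genes of RANK ligand, receptor partners and signalling that were kept, 1 fell, none rose and 23 did not pass (median log2 ratio -0.02). The share called was 4.17%, beside 2.91% of all genes kept. Pirb fell, with 37019 and 43373 normalized counts in the knockout against 56257 and 52664 in wild type (log2 ratio -0.44, SE 0.08, limma adjusted p = 0.0150). It encodes an inhibitory receptor that restrains myeloid cells, osteoclast precursors among them. Pirb has close copies among the paired immunoglobulin-like receptors whose reads the counting could split, so its value is uncertain. The largest other log2 ratios were -0.54 for Sirpb1a, which also has close copies, 0.25 for the calcineurin subunit Ppp3ca and -0.24 for the RANKL-binding receptor Lgr4, none past the threshold.

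Of 22 transcription factors of the osteoclast pathway, none was called by limma or edgeR. DESeq2 called 1 higher and 1 lower. The widest log2 ratios belonged to Myc, at 0.66 (limma adjusted p = 0.109), and Fosl1, an AP-1 subunit, at 0.43 (adjusted p = 0.223). Among other AP-1 genes, Jun had -0.33 (adjusted p = 0.0590) and Fos, required for osteoclast formation, 0.24 (adjusted p = 0.0874). Ratios lay above 0 in 11 of the 22 and below 0 in 11.

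Repressors of the osteoclast fate moved both ways. Of 13 kept, 1 rose, 1 fell and 11 did not pass, with 15.4% called beside 2.91% of all genes kept. Id2, an inhibitor of helix-loop-helix factors, had 27594 and 27688 normalized counts in the knockout against 23024 and 21300 in wild type (log2 ratio 0.32, SE 0.07, limma adjusted p = 0.0291). Its adjusted p was 0.149 after removal of GC and length trends and 0.156 with knockout column 2 left out. Id3 had a log2 ratio of 0.28 and Pilra of -0.24, and neither passed.

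Of 19 bone resorption genes kept, 1 fell, none rose and 18 did not pass (median log2 ratio -0.07). The share called was 5.26%, beside 2.91% of all genes kept. Mmp14, a membrane-anchored collagenase, fell, with 4889 and 4631 normalized counts in the knockout against 6160 and 6138 in wild type (log2 ratio -0.37, SE 0.07, limma adjusted p = 0.0179, and 0.136 without knockout column 2). Mmp9, the gelatinase of osteoclasts, had 227 and 160 normalized counts in the knockout and 237 and 308 in wild type (log2 ratio -0.50, adjusted p = 0.229). Integrin beta 3 (Itgb3), which anchors osteoclasts to bone, had 32.8 and 24.2 in the knockout and 38.9 and 59.4 in wild type (log2 ratio -0.75, adjusted p = 0.406). Rab38, a small GTPase of osteoclasts, had 12.6 and 21.2 in the knockout and 26.0 and 36.8 in wild type (log2 ratio -0.88, adjusted p = 0.457). Ctsk, which encodes cathepsin K, the main bone collagen protease, was looked at after its values were seen. It had 222 and 184 normalized counts in the knockout and 169 and 173 in wild type (log2 ratio 0.24, adjusted p = 0.561).

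Macrophage fusion genes held 4 of the 8 list calls. Of 19 kept, Cd36, Cd44 and Cd9 rose, P2rx7 fell and 15 did not pass, with a list median of -0.01. The calls were 21.1% of the 19, beside 2.91% of all genes kept, in a list chosen with earlier results of these data known. Here edgeR called 3 higher and 2 lower, and DESeq2 called 5 higher and 2 lower. Cd36, a scavenger receptor that takes part in giant cell formation, had 39899 and 34036 normalized counts in the knockout against 26263 and 28113 in wild type (log2 ratio 0.44, SE 0.08, limma adjusted p = 0.0140). Cd44, the hyaluronan receptor, had a log2 ratio of 0.37 (adjusted p = 0.0246). The tetraspanin Cd9, which restrains or helps fusion depending on the cell, had one of 0.34 (adjusted p = 0.0335). P2rx7, the ATP-gated channel that has been tied to multinucleation, had 3917 and 5443 normalized counts in the knockout against 8532 and 6851 in wild type (log2 ratio -0.73, SE 0.13, adjusted p = 0.0111). Without knockout column 2 the call of Cd9 was lost (adjusted p = 0.0779). After removal of the GC and length trends Cd36 (adjusted p = 0.0794) and Cd9 (0.180) lost theirs, and DESeq2 did not call P2rx7 (0.113).

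Of 18 V-ATPase subunits kept, Atp6v0d2 aside, limma, edgeR and DESeq2 called none. Their log2 ratios ran from -0.36 (Atp6v1g2) to 0.19 (Atp6v1h and Atp6v1d), with 0.13 for Atp6v1c1. Of 26 Src family kinases and podosome genes, limma and edgeR called none and DESeq2 called 1 lower. The widest log2 ratios were -0.49 for Fgr, -0.35 for Cbl, a ubiquitin ligase that acts with Src, 0.31 for the Rac activator Dock5 and 0.29 for cortactin (Cttn). None passed the threshold.

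Of the marker lists of other cells, those of dendritic cells and of stromal cells and osteoblasts held genes that passed the test. Dendritic cell markers, which matter here because DC-STAMP is named after dendritic cells, summed to 57751 and 69374 normalized counts in the knockout, against 50532 and 41342 in wild type. Most of each sum was Ccl22 alone, at 44292 and 55467 in the knockout and 40794 and 32385 in wild type. Of the 8 markers, 4 were kept, of which Ccr7, Xcr1 and Ccl22 rose (log2 ratios 0.64, 0.51 and 0.45, with limma adjusted p = 0.00565, 0.00537 and 0.0445). That is 75% of those kept, beside 2.91% of all genes kept. DESeq2 did not call Ccl22 (adjusted p = 0.252). Flt3 and Zbtb46, which define conventional dendritic cells, were under 20 reads in each column, and Siglech and Cd209a were at 0 in every column. Activated macrophages also express Ccr7 and Ccl22. Stromal and osteoblast markers, of which 11 were in the table, summed to 999 and 961 normalized counts in the knockout, against 1087 and 1229 in wild type. Most of each sum was Runx2 and Lum, so it hides the collagen genes. Of 7 kept, 2 fell (28.6%, beside 2.91% of all genes kept called), none rose and 5 did not pass. Those that fell by limma were Col1a1 and Col1a2, the type I collagen chains. DESeq2 gave them no adjusted p. Col1a1 had 2.52 and 3.02 normalized counts in the knockout, against 149 and 136 in wild type. Col1a2 was at 0 in both knockout columns, against 97.4 and 146 normalized counts in wild type. Col3a1 was also at 0 in both knockout columns, against 29.2 and 28.3 in wild type, but did not pass (limma adjusted p = 0.0638). Runx2, an osteoblast transcription factor, had the opposite sign, with 540 and 595 normalized counts in the knockout and 388 and 457 in wild type (log2 ratio 0.43, limma adjusted p = 0.125), as did Lum (0.19, adjusted p = 0.644). No gene of the neutrophil and progenitor list or of the erythroid and platelet list passed. No lymphocyte marker was kept. Neutrophil and progenitor markers summed to 401 and 432 normalized counts in the knockout and 501 and 477 in wild type, lymphocyte markers to 16.4 and 30.2 in the knockout and 24.3 and 25.5 in wild type, and erythroid and platelet markers to 593 and 565 in the knockout and 599 and 598 in wild type. The part of these cells in the values of the 9 genes was not tested.

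Genes with the pattern most like a member were found by Euclidean distance between log2 values centred on the gene mean, over 4 columns and 10799 genes averaging at least 100 normalized counts. For Dcstamp the nearest were Zfp993 (distance 0.0313), 5430437J10Rik (0.0576) and Card19 (0.0643). For Ocstamp they were Zfpm1 (0.0280), Lsm1 (0.0294) and Rplp2 (0.0302). For Acp5 they were Met (0.0763), Car5b (0.0765) and B230118H07Rik (0.110). Over 4 columns such likeness describes these columns only.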

How the data were processed

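Bulk RNA was sequenced from directional libraries, per the labels' protocols. The values deposited by the authors are a normalized signal, read as whole reads over 1 factor per column, since 100% of them came out whole (tolerance 0.01 reads) when divided by a column's lowest value above 0. Per the submitters' processing notes, the names given are mm10 and StringTie. Neither an aligner nor the normalizing tool, nor whether counting used strand, is named there. Columns without KO in their name were taken as wild type.

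The table had 17271 rows. Of these 1 had a blank symbol (0.0272% to 0.0366% of a column's total) and stayed out, and 19 symbols turned into dates were tested but not named. The columns of a genotype differed by more than counting noise (chi-square per gene 12.7 in the knockout and 19.3 in wild type). Limma 3.58.1 with an intensity trend was fitted to log2(normalized count + 1) over the 12872 genes reaching 20 reads somewhere, with Benjamini-Hochberg adjustment. Residual degrees of freedom were 2 and the prior added 12.2. A fold change on the log2(value + 1) scale understates low genes. R 4.3.3, edgeR 4.0.16 and DESeq2 1.42.0 on recovered reads (edgeR called 204 genes higher and 175 lower), and pandas 2.3.3 were used. Lengths and GC content are those of the longest coding transcript of GENCODE M21 (GRCm38, the same build as mm10), found for 15292 genes, all 9 members included. Trends over both were removed with robust splines.

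Members and lists were chosen with earlier results of these data known. The naming rule took all 9 members, their paralogs, each called list gene and up to 4 genes per list with the largest absolute ratio. A few genes under this rule are not reported here. Intervals and floors cover counting error only.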

Additional observations from a re-analysis of the deposited data

How the results depend on the processing

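The 9 members' median log2 ratio of 0.47 ran from 0.19 to 0.66 as single columns were left out, and was 0.47 under a pseudocount of 0.1, TMM scaling, median centring, GC and length removal and the replicate block. It does not use the filter, and edgeR and DESeq2 gave ratios for 7 members only, so those settings have no median. Src, at -0.06, changed sign after removal of GC and length trends (0.10) and ran from -0.18 to 0.067 as single columns were left out, above 0 when wild-type column 2 (0.030) or knockout column 2 (0.067) was left out. The other 8 members kept their sign in each setting that gave them a value. The cause was not tested.

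Over all genes limma called 215 higher and 160 lower. DESeq2, which gave no adjusted p for 4492 genes of low count, called 341 higher, the fit without a filter 122 and 100, and the fit after trend removal 121 and 97. Leaving out a column gave 14 to 355 higher and 3 to 265 lower. In the related lists, with 4 higher and 4 lower, DESeq2 called 7 and 8, trend removal left 1 higher, and leaving out a column gave 0 to 9 higher and 0 to 7 lower. Counts without wild-type column 1 or knockout column 1 were the low ones.

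The labels do not say whether same-numbered columns belong together. Their deviations were correlated at -0.0342. With 2 columns per genotype this is a single value, which cannot decide whether the columns were prepared in pairs. With a replicate block on the column number limma called 322 genes higher and 280 lower over all genes. In the lists it called 6 higher and 9 lower, and all 8 list calls were kept. The block leaves fewer residual degrees of freedom than the 2 of the main fit, yet gave the 8 list calls smaller adjusted p-values. P2rx7 had a limma adjusted p of 1.83e-06 with the block and 0.0111 without, although its same-numbered columns deviated in opposite directions. The added calls are therefore no sign of firmer results. Oscar and Calcr stayed under 20 reads in every column, so their differences rest on few reads.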
